A study of Mus musculus with 6 samples.

Results

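The genes described are the superoxide dismutases Sod1, Sod2 and Sod3, catalase (Cat) and the glutathione peroxidases Gpx1, Gpx2, Gpx3, Gpx4 and Gpx7. They were taken as a fixed list by function and found on the arrays through the transcript accession of each probe. All 9 were present among 21059 genes and unmatched transcripts tested, each read by 1 probe. RNA levels came from 6 one-colour Agilent arrays of mouse liver at 5 weeks of age, on a mixed 129Sv/J, C57BL/6J and ICR background. The 3 control samples were from wild-type mice, and the 3 sMaf CKO samples were from mice in which small Maf genes were knocked out in the liver. The labels do not state which small Maf genes were deleted, what drove the deletion or the sex of the mice. The submitters call the RNA samples of a genotype independent, and p-values measure the spread between these samples.

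Superoxide dismutases turn superoxide into hydrogen peroxide and oxygen, each in its own place: Sod1 (copper and zinc) mainly in the cytosol, Sod2 (manganese) in mitochondria and Sod3 (copper and zinc) outside cells. Catalase, a haem enzyme of peroxisomes, breaks hydrogen peroxide down to water, and glutathione peroxidases reduce peroxides at the expense of glutathione. Small Maf proteins bind DNA in pairs with CNC factors such as NRF2, whose targets include many enzymes of glutathione and thioredoxin metabolism in the liver.

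The promoters of 3 members are shown as the stretches in which a binding motif of such pairs could be looked for. Gpx3 and Cat are the members whose arrays did not overlap between genotypes, and Sod1 is the single member with a match. Each sequence holds the 250 bases before the RefSeq start in GRCm38.p6, 5′ to 3′ on the strand of the gene. These stretches are chr11:54902604-54902853 (plus strand) for Gpx3, chr2:103485154-103485403 (minus strand) for Cat and chr16:90220512-90220761 (plus strand) for Sod1. In Gpx3 and Cat the capitals mark GGGCGG (the GC box) and CCAAT on either strand, and in Sod1 they mark the match to TGACNNNGC, the core of the antioxidant response element, which lies on the minus strand.
Gpx3: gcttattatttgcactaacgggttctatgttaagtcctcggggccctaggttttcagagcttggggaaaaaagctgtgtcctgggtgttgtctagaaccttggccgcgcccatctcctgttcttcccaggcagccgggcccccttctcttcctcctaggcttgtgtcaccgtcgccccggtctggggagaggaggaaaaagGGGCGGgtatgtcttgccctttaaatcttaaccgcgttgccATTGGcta
Cat: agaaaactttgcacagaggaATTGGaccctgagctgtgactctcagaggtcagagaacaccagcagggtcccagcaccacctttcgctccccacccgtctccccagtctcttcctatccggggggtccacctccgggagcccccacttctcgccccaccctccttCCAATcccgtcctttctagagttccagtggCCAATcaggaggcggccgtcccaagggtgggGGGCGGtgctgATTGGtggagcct
Sod1: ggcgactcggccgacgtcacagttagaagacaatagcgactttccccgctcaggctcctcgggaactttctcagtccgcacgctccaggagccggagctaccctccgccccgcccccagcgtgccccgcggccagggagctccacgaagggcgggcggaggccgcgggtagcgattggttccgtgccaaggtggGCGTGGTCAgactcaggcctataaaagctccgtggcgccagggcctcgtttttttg

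RefSeq promoters were matched for 8 of the 9 members (11 start sites in all). TGACNNNGC on either strand was found before 1 of the 11 starts, that of Sod1, where the match begins 56 bases before the start. The same motif occurred in 10.2% of 32851 mouse promoters of this length. The AP-1 motif TGAGTCA, which overlaps Maf sites in sequence, was found in 0 of the 11 and in 4.46% of all. GGGCGG was present before 8 of the 11 starts (6 genes), and 32.7% of all promoters held it. CCAAT was likewise present before 8 of the 11 starts (6 genes) and in 33.8% of all, with 4 matches in Cat and 1 in Gpx3. Several of the 11 starts belong to Gpx4, and some of its windows overlap and hold the same matches. The counts over starts are therefore not independent. Matches are letters in a window and were not tested as sites.

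Before the members, the targeted family was read on each array. Levels are log2 intensities from which the 75th percentile of the array was taken, given in the order of replicates 1, 2 and 3. Mafg read 1.88, 1.87 and 2.23 in control liver and -2.97, -4.36 and -0.76 in sMaf CKO liver. Mafg was lower on every sMaf CKO array, least so on replicate 3 (difference -4.69, limma adjusted p = 0.0533). With slide as a block it passed (adjusted p = 0.0207), and over left-out arrays its adjusted p ran from 0.00484 (without sMaf CKO replicate 3) to 0.195. Maff (0.15, adjusted p = 0.911) and Mafk (0.21, adjusted p = 0.759) overlapped between genotypes. Whether the probes of these genes lie in the deleted parts is not known. Replicates 1 and 2 of both genotypes shared slide 1 and replicate 3 of both lay on slide 2. The 75th percentile of signal ran from 483.4 to 960.5, highest on sMaf CKO array 1, and 58.03% to 73.56% of probes were well above background. Of 8 hepatocyte markers tested, all were well above background on all arrays, Alb included.

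Catalase was lower on all 3 sMaf CKO arrays and Gpx3, the secreted plasma peroxidase, was higher on all 3, while the other 7 members overlapped between genotypes. None of the 9 passed limma's test at a Benjamini-Hochberg adjusted p under 0.05 over all genes, where 0.541% of genes did. At an unadjusted p under 0.05, 2 of 9 members (Cat and Gpx3) differed, against 16.8% of all genes, and the genotypes did not overlap for the same 2, against 22.9% of all genes. By direction, 8.10% of genes were lower and 8.71% higher at that p, and 11.6% lower and 11.3% higher without overlap. These shares lie near the background and are not a result about the group. Fold changes were negative for 7 members and positive for 2, with a median of -0.25 on the log2 scale, beside 54.7% negative and a median of -0.05 over all genes. Every member was well above background on all 6 arrays and none was saturated. The brightest, Gpx1 and Sod1, reached 40.0% and 37.4% of the saturation value.

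**Figure D1:**
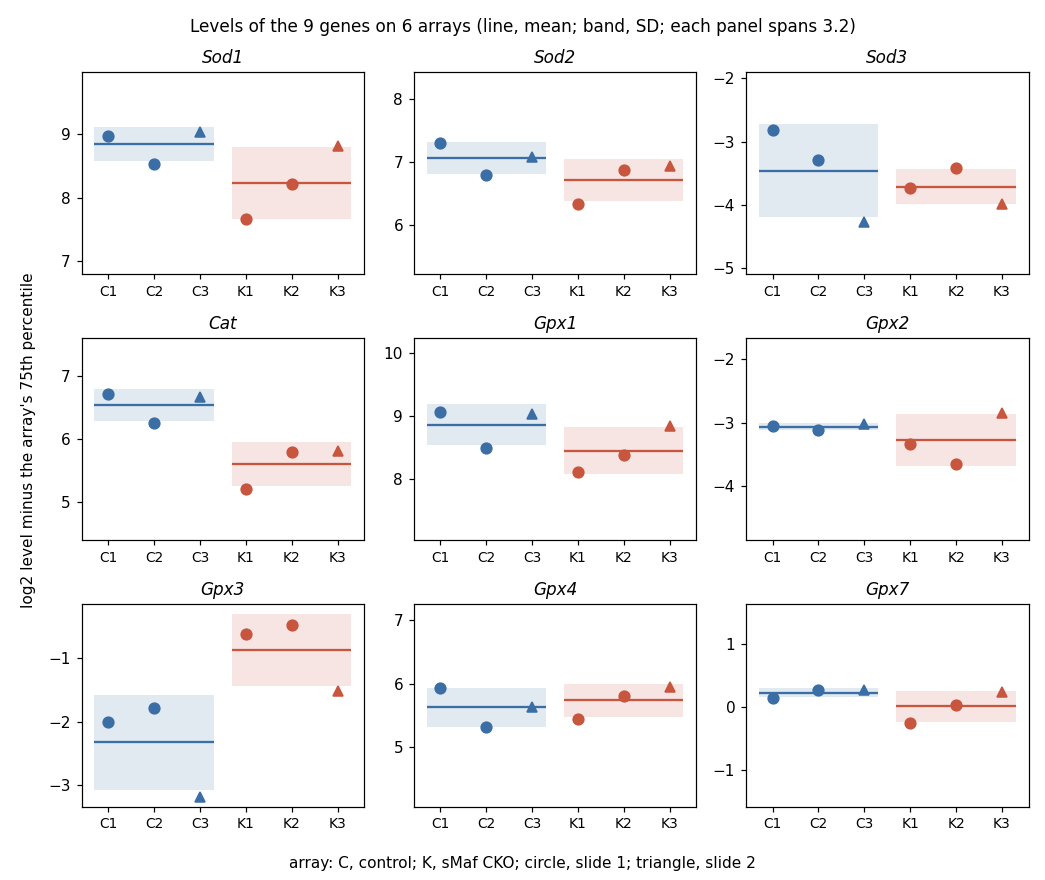
Log2 level of each of the 9 genes (vertical axis, log2 intensity minus that array's 75th percentile) on the 3 control (blue) and 3 sMaf CKO (red) arrays, with circles for slide 1 and triangles for slide 2. Lines are group means and bands are 1 SD, and in the panels of Cat and Gpx3 the groups do not overlap.

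Among the dismutases, Sod1 had the lowest fold change. It read 8.97, 8.53 and 9.04 in control and 7.66, 8.22 and 8.81 in sMaf CKO liver. The control mean was 8.85 ± 0.27 (SD, n = 3) and the sMaf CKO mean 8.23 ± 0.58 (SD, n = 3). The sMaf CKO arrays were spread, with replicate 1 at 43.9% of the control mean, replicate 2 at 64.6% and replicate 3 at 97.6%, inside the control range. The difference was -0.62 (SE 0.33, 95% interval -1.38 to 0.14, limma adjusted p = 0.387), -0.81 within slide 1 and -0.23 within slide 2. Leaving out sMaf CKO replicate 1 gave -0.33.

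Sod2, the mitochondrial enzyme, read 7.30, 6.80 and 7.08 in control and 6.34, 6.88 and 6.94 in sMaf CKO liver. Only sMaf CKO replicate 1 lay below the control range. The difference was -0.34 (SE 0.26, 95% interval -0.94 to 0.26, limma adjusted p = 0.537), and it was 0.05 under quantile normalization. Sod3, the extracellular enzyme, was dim, with intensities of 25.1 to 82.1 on the control arrays and 30.8 to 72.2 on the sMaf CKO arrays. Its log2 levels were -2.82, -3.29 and -4.27 in control and -3.73, -3.42 and -3.98 in sMaf CKO liver, so that the sMaf CKO arrays lay wholly inside the control range. The difference of -0.25 (SE 0.38, 95% interval -1.14 to 0.63, adjusted p = 0.773) turned to 0.29 within slide 2 and to 0.06 without control replicate 1.

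Genes that supply the metals of the dismutases were read from a separate list of 10. Ccs, the copper chaperone of Sod1, differed by -0.44 (adjusted p = 0.547) and the copper importer Slc31a1 by -0.46 (adjusted p = 0.413). Atp7b, the copper-transporting ATPase of hepatocytes, had the smallest p of the list at -0.93 (SE 0.33, limma adjusted p = 0.227). Of the 10, 0 passed over all genes and 1 had an unadjusted p under 0.05, against 16.8% of all genes. The median fold change of the list was -0.12. It was 0.21 with spike-in scaling, -0.23 without control replicate 1 and -0.07 without sMaf CKO replicate 2.

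Catalase had the smallest p among the members. It read 6.71, 6.25 and 6.66 in control and 5.21, 5.80 and 5.82 in sMaf CKO liver. The highest sMaf CKO array lay 0.43 below the lowest control array, and the 3 arrays stood at 39.9%, 60.2% and 60.8% of the control mean. The means were 6.54 ± 0.25 and 5.61 ± 0.35 (SD, n = 3 each), a difference of -0.93 (SE 0.26, 95% interval -1.53 to -0.32) or 1.90-fold (interval 1.25-fold to 2.89-fold). It did not pass over all genes (limma adjusted p = 0.160, unadjusted p = 0.00813 from the fit across all genes). With slide as a block the adjusted p was 0.115, and the difference was -0.97 within slide 1 and -0.84 within slide 2. Over left-out arrays the difference stayed between -1.07 and -0.73. It was -0.55 under quantile normalization and -0.60 with spike-in scaling, which raises the median of all genes by 0.33.

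On the same arrays, beside 54.7% of all genes, 8 of 8 hepatocyte markers tested had negative fold changes. The markers had a median of -0.43, and 0 passed the test over all genes. Their summed level relative to the 75th percentile was 2616 to 3242 in control and 1724 to 3108 in sMaf CKO liver. The hepatocyte median was -0.59 on slide 1, where Cat differed by -0.97, and -0.08 on slide 2 (1 array against 1), where Cat differed by -0.84. Leaving out sMaf CKO replicate 1 gave a hepatocyte median of -0.24 and a difference of -0.73 for Cat. The part of hepatocyte content in the level of Cat was not tested. In whole liver, fewer cells of a type and less RNA per cell cannot be told apart.

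Genes of the organelle that holds catalase were read as a list. Beside 54.7% of all genes, all 21 tested genes of peroxisome biogenesis and membrane had negative fold changes. Their median was -0.34, and it was -0.46 on slide 1, -0.31 on slide 2, -0.21 without sMaf CKO replicate 1 and -0.02 with spike-in scaling. Of the 21, 0 passed over all genes. Downward, 6 had an unadjusted p under 0.05, against 8.10% of all genes, and no test was run over the list. Abcd2, a transporter of very long chain fatty acids, differed by -1.12 (SE 0.30, limma adjusted p = 0.152) and Pex2, a ubiquitin ligase of the peroxisomal membrane, by -0.71 (SE 0.23, adjusted p = 0.193). Enzymes and oxidases that make superoxide or hydrogen peroxide had 10 positive and 11 negative fold changes, so their median describes neither side. It was -0.44 (-0.19 without sMaf CKO replicate 1, -0.27 without control replicate 1), and 0 of 21 passed the test. At an unadjusted p under 0.05, 3 were higher and 5 lower, against 8.71% and 8.10% of all genes. Cyba, a membrane subunit of NADPH oxidases, differed by 1.04 (SE 0.34, limma adjusted p = 0.202). It was higher on every sMaf CKO array than on any control array, as were 11.3% of all genes.

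By pattern over the 6 arrays, the genes nearest to Cat were Pgrmc1, Aspscr1 and Prlr among 14179 compared. Likeness was the root mean square difference of log2 levels centred on the mean of each gene. It was 0.071 for Pgrmc1, a haem-binding membrane protein, 0.076 for Aspscr1, a tether of glucose transporter vesicles, and 0.084 for Prlr, the prolactin receptor. Their own differences were -0.98, -0.83 and -1.03 (limma adjusted p = 0.129, 0.191 and 0.120). Likeness over 6 arrays is a description.

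**Figure D2:**
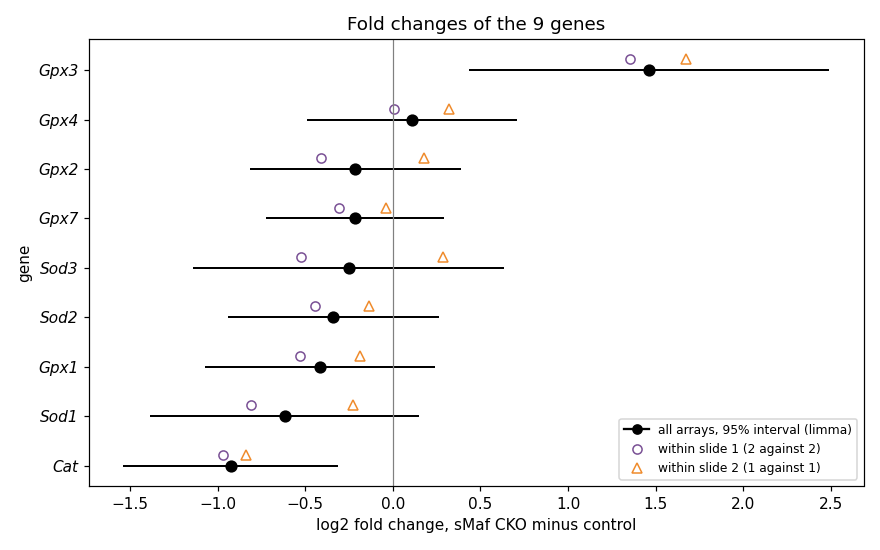
Log2 fold change of each gene, sMaf CKO minus control (horizontal axis), with limma's 95% interval over all 6 arrays (black) and the differences within slide 1 (open circle) and slide 2 (open triangle). The intervals of Cat (-1.53 to -0.32) and Gpx3 (0.44 to 2.49) lie clear of 0 and those of the other 7 span it.

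Gpx3 was the member with the highest fold change. It read -2.0, -1.79 and -3.19 in control and -0.61, -0.47 and -1.52 in sMaf CKO liver. The lowest sMaf CKO array lay 0.27 above the highest control array, and on both genotypes replicate 3, on slide 2, was lowest. The means were -2.33 ± 0.76 and -0.87 ± 0.57 (SD, n = 3 each), a difference of 1.46 (SE 0.44) or 2.75-fold (95% interval 1.36-fold to 5.60-fold). The probe was dim, with intensities of 52.8 to 176.6 on the control arrays and 168.7 to 628.7 on the sMaf CKO arrays. With normexp background correction the difference was 1.10 (limma adjusted p = 0.141). In the main fit Gpx3 did not pass over all genes (limma adjusted p = 0.177, unadjusted p = 0.0113 from the fit across all genes). With slide as a block, which takes out the low level of slide 2, the SE fell to 0.21 and Gpx3 passed (limma adjusted p = 0.0267), the single member to do so. Under that model 1.61% of all genes passed, 0.992% upward. The difference was 1.36 within slide 1 and 1.67 within slide 2, and between 1.03 and 1.79 over left-out arrays, lowest without control replicate 3.

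Macrophage markers are given beside Gpx3. Of 9 markers of monocyte-derived macrophages, 7 had positive and 2 negative fold changes, with a median of 0.99. Upward, 5 (Trem2 and Gpnmb included) had an unadjusted p under 0.05, against 8.71% of all genes. Downward, 1 did, against 8.10% of all genes. Trem2, a lipid-sensing receptor, rose (limma adjusted p = 0.0105), a direction in which 0.385% of all genes passed, though not without control replicate 1 (adjusted p = 0.0761). Trem2 was not well above background on all 6 arrays. Its difference of 4.18 was 2.61 with normexp background correction and 3.52 as the mean of its probes. With probes well above background on all 6 arrays, the list median was 0.81 and 0 passed. The summed level of the 9 was 40.6 to 56.0 in control and 46.5 to 75.8 in sMaf CKO liver, ranges that overlap. Gpnmb stood well above background on 0 of 3 control and 3 of 3 sMaf CKO arrays. It entered the test only through the sMaf CKO arrays, so its call at the adjusted threshold is not counted here. Of 9 Kupffer cell markers, 9 had positive fold changes and 0 passed. Upward, 4 had an unadjusted p under 0.05, against 8.71% of all genes. With slide as a block 1 passed, the scavenger receptor Marco (3.73, limma adjusted p = 0.0107). The median of the 9 was 0.77, and it was 0.46 without control replicate 3. Their summed level 94.9 to 163.6 in control and 218.9 to 459.0 in sMaf CKO liver. The mean Kupffer score was lowest among control arrays on replicate 3 (-0.60) and lowest among sMaf CKO arrays on replicate 3 (0.66), as was Gpx3. Replicate 3 of both genotypes lay on slide 2, so slide cannot be told apart here. On slide 1 the order differed in both genotypes, with the Kupffer score higher on replicate 1 (0.39 and 1.41) and Gpx3 higher on replicate 2. Separation of scores was not particular to macrophages. The mean score of stellate cell and fibroblast markers was -0.18 to 0.22 on control and 0.38 to 0.70 on sMaf CKO arrays. The part of any of these cells in the level of Gpx3 was not tested.

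**Figure D3:**
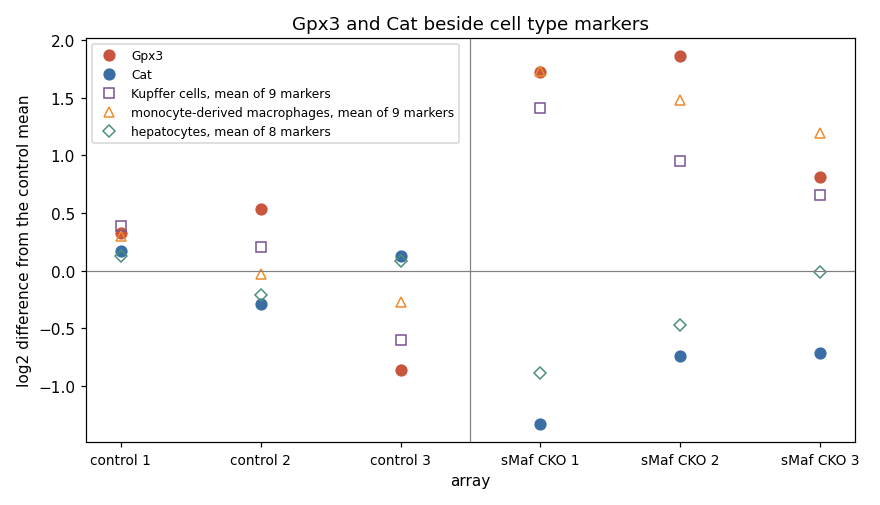
Log2 difference from the control mean (vertical axis) on each of the 6 arrays for Gpx3 and Cat (filled) and for the mean of markers of Kupffer cells, monocyte-derived macrophages and hepatocytes (open). Gpx3 and both macrophage scores are higher on each sMaf CKO array than on any control array, and Cat is lower, while the hepatocyte score of sMaf CKO array 3 (-0.01) lies inside the control range. The monocyte-derived score includes Trem2 (4.18) and Gpnmb (5.52), which entered the test only through the sMaf CKO arrays in the case of Gpnmb. The separation of that score is therefore not independent of these 2 markers. The score of stellate cells and fibroblasts, not drawn, was also higher on each sMaf CKO array than on any control array.

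The other selenium-dependent peroxidases overlapped between genotypes. Gpx1, the abundant cytosolic and mitochondrial enzyme, read 9.07, 8.50 and 9.04 in control and 8.12, 8.39 and 8.85 in sMaf CKO liver. Replicates 1 and 2 of sMaf CKO lay below all controls and replicate 3 did not. The difference was -0.42 (SE 0.28, 95% interval -1.06 to 0.23, limma adjusted p = 0.491), and -0.01 under quantile normalization. Gpx2, known from gut epithelium, was dim (intensities of 59.7 to 70.4 in control) and read -3.05, -3.12 and -3.02 in control and -3.34, -3.65 and -2.84 in sMaf CKO liver. Its control arrays lay within 0.10 of each other and the sMaf CKO arrays fell on both sides of them. The difference was -0.21 (SE 0.26, 95% interval -0.81 to 0.38, adjusted p = 0.711), -0.41 within slide 1 and 0.18 within slide 2.

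Gpx4, which reduces phospholipid hydroperoxides and guards against ferroptosis, was the other member with a positive fold change. It read 5.93, 5.31 and 5.63 in control and 5.44, 5.81 and 5.95 in sMaf CKO liver, ranges that overlapped almost wholly. The difference was 0.11 (SE 0.25, 95% interval -0.48 to 0.70, limma adjusted p = 0.859), 0.01 within slide 1, 0.32 within slide 2 and -0.05 without control replicate 2. The interval allows a level between 0.72 and 1.63 times that of control. Gpx7, a peroxidase of the endoplasmic reticulum that carries cysteine in place of selenocysteine, read 0.14, 0.26 and 0.27 in control and -0.25, 0.03 and 0.23 in sMaf CKO liver. Replicate 3 of sMaf CKO lay inside the control range and the other 2 below it. The difference was -0.22 (SE 0.22, 95% interval -0.72 to 0.28, adjusted p = 0.645) and turned to 0.11 with spike-in scaling.

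**Figure D4:**
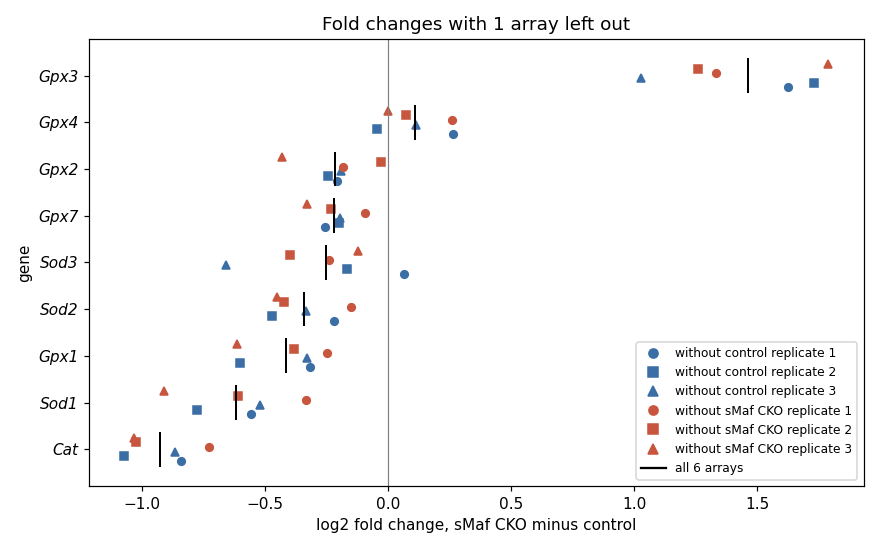
Log2 fold change of each gene, sMaf CKO minus control (horizontal axis), with each of the 6 arrays left out in turn (points) beside the value over all arrays (black bar). Cat stays between -1.07 and -0.73 and Gpx3 between 1.03 and 1.79, whereas Sod3 and Gpx4 reach the other side of 0 (0.06 and -0.05).

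Members differed in how much their levels varied within a genotype. The SD over control arrays was 0.054 for Gpx2 and 0.070 for Gpx7, smaller than for all but 2.69% and 4.55% of genes. It was 0.76 for Gpx3 and 0.74 for Sod3, larger than for 92.5% and 92.0% of genes, and in both the control array on slide 2 was the lowest. Over sMaf CKO arrays the SD was largest for Sod1 (0.58) and Gpx3 (0.57), beside a median over all genes of 0.33. The low sMaf CKO array was replicate 1 for Sod1 and replicate 3 for Gpx3.

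Outside the members, the family has Gpx6 and Gpx8 among the genes tested. Gpx6, a peroxidase known from olfactory epithelium, was the single gene of the related lists to pass in the main fit. In its direction 0.157% of all genes passed. It read -3.88, -4.11 and -3.58 in control and -5.72, -5.29 and -6.12 in sMaf CKO liver, and differed by -1.86 (SE 0.28, limma adjusted p = 0.0477). All 3 sMaf CKO arrays lay below all controls, as for 11.6% of all genes. The probe was dim, well above background on all 3 control but 2 of 3 sMaf CKO arrays, and with normexp background correction the difference was -0.44 (adjusted p = 0.824). Leaving out any 1 array other than sMaf CKO replicate 3 ended the call (adjusted p from 0.0533 to 0.174). Gpx8, a peroxidase of the endoplasmic reticulum related to Gpx7, read -0.99, -1.01 and -1.21 in control and -0.25, -0.69 and -0.39 in sMaf CKO liver (0.63, SE 0.22, limma adjusted p = 0.221). Its sMaf CKO arrays all lay above the controls, as for 11.3% of all genes.

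Selenocysteine is built by a dedicated set of genes on which the selenium-dependent glutathione peroxidases rely. Of 9 such genes tested, 8 had negative fold changes, with a median of -0.29 (0.03 with spike-in scaling). Of the 9, 0 passed and 1 had an unadjusted p under 0.05, against 16.8% of all genes. Sephs2, which makes the selenium donor, differed by -0.71 (SE 0.30, limma adjusted p = 0.287) and Pstk, a kinase of the selenocysteine tRNA, by -0.45 (SE 0.22, adjusted p = 0.343). Among 15 other selenoproteins, 12 fold changes were negative and 3 positive, with a median of -0.38 (-0.19 without sMaf CKO replicate 1, -0.24 without control replicate 1). In the main fit 0 passed. At an unadjusted p under 0.05, 3 were lower and 1 higher, against 8.10% and 8.71% of all genes. Dio1, the deiodinase of liver, read 4.81, 4.89 and 4.93 in control and 2.43, 2.79 and 4.09 in sMaf CKO liver (-1.77, SE 0.41, limma adjusted p = 0.112). It was lower on every sMaf CKO array, as were 11.6% of all genes, with replicate 3 nearest to control. Dio1 passed without sMaf CKO replicate 3 (limma adjusted p = 0.0116), with array weights (0.0272) and within slide 1 (0.0228). Txnrd3, a thioredoxin reductase, differed by -0.71 (SE 0.23, adjusted p = 0.205).

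Peroxiredoxins share hydrogen peroxide as substrate with catalase and the glutathione peroxidases. Beside 54.7% of all genes, all 10 peroxiredoxin, thioredoxin and sulfiredoxin genes tested had negative fold changes and 0 passed. Their median was -0.35, and it was -0.51 on slide 1, -0.18 on slide 2, -0.56 without control replicate 2 and -0.02 with spike-in scaling. Prdx1, the major cytosolic peroxiredoxin, read 7.05, 6.71 and 6.77 in control and 5.58, 5.95 and 5.87 in sMaf CKO liver (-1.04, SE 0.22, limma adjusted p = 0.0871). Among the peroxiredoxins, the genotypes did not overlap for Prdx1 and Prdx6 (-0.96, SE 0.33, adjusted p = 0.214). Nor did they for the sulfiredoxin Srxn1 (-0.38, SE 0.21, adjusted p = 0.402). The same held for 11.6% of all genes in that direction. Of 9 genes of glutathione synthesis and reduction, 7 were negative and 2 positive, and 0 passed the test. Downward, 4 had an unadjusted p under 0.05, against 8.10% of all genes. The median of the 9 was -0.51. That median was -0.33 without control replicate 1 and -0.32 without sMaf CKO replicate 2. Gclc, the catalytic subunit of glutamate-cysteine ligase, differed by -1.03 (SE 0.25, adjusted p = 0.124) and the glutaredoxin Glrx by -0.92 (SE 0.27, adjusted p = 0.166). No test compared these lists with the members.

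**Figure D5:**
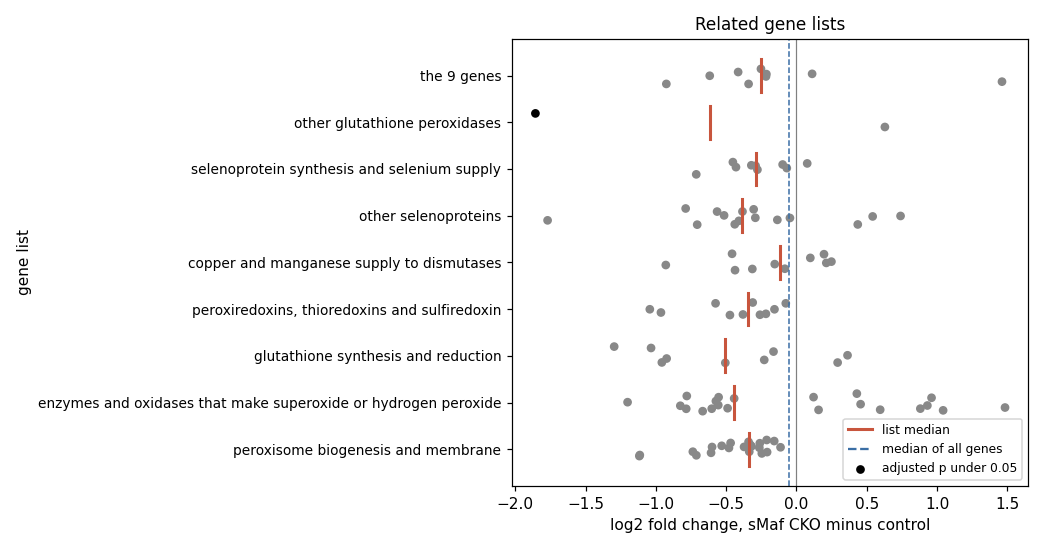
Log2 fold change, sMaf CKO minus control (horizontal axis), of each tested gene in the 9 members and in 8 related lists, with the list median in red and the median of all genes (-0.05) dashed. The single gene past an adjusted p of 0.05 (black) is Gpx6 at -1.86, and the list medians lie between -0.61 and -0.12. The -0.61 is the midpoint of 2 genes of opposite sign, Gpx6 and Gpx8 (0.63). With normexp background correction it was 0.04.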

How the data were processed

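Liver RNA (500 ng of total RNA per sample, per the labels' protocols) was hybridised to 1 array per sample. The deposited intensity of a spot was made by the authors with Feature Extraction 10.7.3.1 (protocol GE1_107_Sep09, per the file headers) and is its processed signal. The deposited series table of log2 values served as an alternative. Its columns followed the 75th-percentile values centred on each probe's median (r = 0.99999 over 41121 probes), and the steps behind it are not stated. Its column medians ran from -0.11 to 0.09.

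Spots of 1 probe were averaged as log2 intensities, and the 75th percentile over 41174 non-control probes was subtracted per array. Control and outlier-flagged spots were left out. A probe entered the test if well above background in 3 or more of 6 arrays (27859 did). Probes were named through RefSeq transcript accessions (26690 with 1 symbol, 14484 without). The kept probe with the highest mean stood for a gene. The test between genotypes was that of limma 3.58.1 (R 4.3.3; lmFit and eBayes with genotype alone), with Benjamini-Hochberg adjustment over all genes and a threshold of 0.05; the script was tested on simulated data. The number of arrays limits the precision.

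The 9 genes, the related lists, the markers and the naming rule (all members; list genes past the threshold, at most 4, or else the 2 with the smallest p; the 3 genes nearest to the member with the smallest p) were chosen with earlier results of these data known, and so were the tests and alternatives. Gpx8, Ccs and Srxn1 fall outside the rule and were named after their values were seen. Protein sequences were not used here. 1 gene that the rule names is not reported here. Spike-in scaling used 5 bright E1A probes. Alternatives were other background corrections, scalings, filters, blocks, weights and left-out arrays.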

Additional observations from a re-analysis of the deposited data

How the results depend on the processing

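Across all alternatives, 0 of the 9 members passed, except that 1 (Gpx3) passed with slide as a block (limma adjusted p = 0.0267) and with a replicate block (0.0446). The replicate numbers share no stated source and were not taken as pairs. Deviations of same-numbered arrays correlated at 0.063, 0.17 and 0.42, the last on slide 2. Control and sMaf CKO arrays correlated from 0.015 to 0.42 on the same slide and from -0.37 to -0.065 across slides. The main fit, with genotype alone, leaves this slide difference in its error. The median of the members was 0.073 with spike-in scaling and lay between -0.43 and -0.18 over left-out arrays. Signs turned for Sod2 under quantile normalization (0.053), for Sod3 (0.073), Gpx2 (0.11) and Gpx7 (0.11) with spike-in scaling and for Sod3 with array weights (0.044). Over left-out arrays Sod3 ran from -0.66 to 0.065 and Gpx4 from -0.046 to 0.26. Cat and Gpx3 kept their signs in every setting run.

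Over all genes 114 changed. The count was 74 with normexp, 22 with quantile normalization, 252 with median scaling, 48 with the percentile over bright probes, 13 with spike-in scaling, 267, 26 and 1 with probes well above background on all 6, on at least 1 and on any number of arrays, 291 with the replicate block, 340 with the slide block, 513 with array weights, 308 with trend and robust settings, 3 at an adjusted p under 0.01 and 196 within slide 1. It ran from 3 to 294 over left-out arrays. Rises were 71.1% of the calls, 81.8% under quantile normalization, 56.7% with array weights, 56.1% within slide 1 and from 48.6% (without sMaf CKO replicate 3) to 86.4% over left-out arrays. Within slide 2, 1 array against 1, Gpx2 differed by 0.18 and Gpx7 by -0.04.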

Other observations

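Other cell types of the liver were read from marker lists. All 9 stellate cell and fibroblast markers had positive fold changes and 0 passed limma's test. Upward, 3 had an unadjusted p under 0.05, against 8.71% of all genes. The median of the 9 was 0.43, and it was 0.48 on slide 1 and 0.63 on slide 2. Reln, a matrix protein of stellate cells, differed by 0.84 (SE 0.19, limma adjusted p = 0.109) and Lrat, which makes retinyl esters, by 0.79 (SE 0.26, adjusted p = 0.202). Erythroid markers, from cells rich in Cat and Gpx1, had 4 positive and 4 negative fold changes and a median of 0.08, which ran from -0.40 without control replicate 1 to 0.68 without control replicate 2. Klf1, the erythroid transcription factor, differed by -1.56 (SE 0.41, adjusted p = 0.144) and Car1, a carbonic anhydrase, by -0.84 (SE 0.28, adjusted p = 0.206). Endothelial markers had a median of -0.16 (0.17 with spike-in scaling, -0.29 to 0.03 over left-out arrays) with 0 of 8 past the test. Neutrophil, ductular and lymphocyte markers had medians of 0.15, 0.30 and 0.20, and 0 of 7, 7 and 9 passed. Over left-out arrays these medians ran from -0.25 to 0.58 for neutrophils, from 0.13 to 0.47 for ductular cells and from -0.08 to 0.53 for lymphocytes.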
